A study of Drosophila melanogaster with 14 samples.

Results

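Circe and Osvaldo are LTR retrotransposon families of the Ty3/gypsy type. The insertions described here are those listed under exactly these family names in 14 lists of transposable element (TE) insertions from 1 Drosophila melanogaster line. The lists hold predicted insertions that the reference genome lacks, and that absence was not checked here. The paper warns that such predictions can include false positives. There were 110 Circe and 70 Osvaldo insertions, which together make 180 of the 20426 insertions listed and 2 of the 123 families. An element of this kind is transcribed from one long terminal repeat, copied into DNA by its own reverse transcriptase and pasted elsewhere in the genome by its integrase. In the follicle cells that surround the germline of the ovary, Piwi loaded with small piRNAs silences such elements in the nucleus, and loss of Piwi there allows some families to make transcripts and particles. Osvaldo was first described in Drosophila buzzatii. Older copies of retrotransposon families collect in the repeat-rich heterochromatin around the centromeres and on the Y chromosome.

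The study asked whether depletion of Piwi in the somatic cells of the ovary leaves new TE insertions in later generations. Every library came from 1 genotype, which carries w, the driver tj-GAL4 and, together, tubP-GAL80[ts] and sh-piwi. The traffic jam driver turns on a hairpin against piwi in the follicle cells, and a temperature-sensitive GAL80 holds GAL4 back at the lower temperature. The piwi-sKD pool is 1 library, labelled as adult fly at 25°C after 5 days of the shift, although the study's methods give embryos of a later generation. The 12 single adult flies carry the same 25°C label, but according to the methods they are also descendants of treated females, so the shift would apply to their ancestors. The no-KD pool is 1 library of embryos aged 3 to 17 h from flies kept at 20°C. Pools were read at 100 nt and flies at 125 nt, by different sequencing sites, so a difference between pools and flies cannot be told apart from a difference in preparation. Because each pool is 1 library, a comparison of the pools compares 2 libraries and not 2 conditions. The flies share the insertions of 1 line, so p-values over flies measure the spread between animals and not between independent sets of loci.

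The piwi-sKD pool listed 5096 insertions of all families supported by 47733 reads, the flies 537 to 1307 insertions with 1774 to 5901 reads, and the no-KD pool 4356 insertions with 38580 reads. An insertion needed at least 2 reads to be listed. Intervals given below are 95% intervals and cover counting error only. No sequence of either family was at hand, so the copies are described by position, support and neighbours alone.

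Circe and Osvaldo were small families, and Circe took nearly the same share of every kind of library. The piwi-sKD pool listed 28 Circe insertions with 253 reads. The flies listed 2 to 7 each, with a median of 5, and 7 to 26 reads. The no-KD pool listed 24 Circe insertions with 214 reads. As a share of all reads in the library, Circe stood at 0.530% in the piwi-sKD pool, at 0.524% ± 0.169 (SD, n = 12) in the flies and at 0.555% in the no-KD pool, so both pools lay inside the range of the flies, 0.238% to 0.838%.

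Osvaldo differed from this in the flies. The piwi-sKD pool listed 12 Osvaldo insertions with 81 reads, the flies 2 to 6 each with a median of 3 and 4 to 25 reads, and the no-KD pool 15 insertions with 66 reads. Osvaldo took 0.170% of the reads in the piwi-sKD pool, 0.360% ± 0.0888 (SD, n = 12) in the flies and 0.171% in the no-KD pool. The lowest fly, at 0.214%, was above both pools. Of the 121 families listed in both pools, 15 (12.4%) had all 12 flies above both pools in the same way, so the pattern is not particular to Osvaldo. By share of insertions the separation was incomplete, with 0.235% in the piwi-sKD pool, 0.404% ± 0.132 (SD, n = 12) in the flies and 0.344% in the no-KD pool. Here 11 of the 12 flies were above the piwi-sKD pool and 7 above the no-KD pool.

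**Figure D1:**
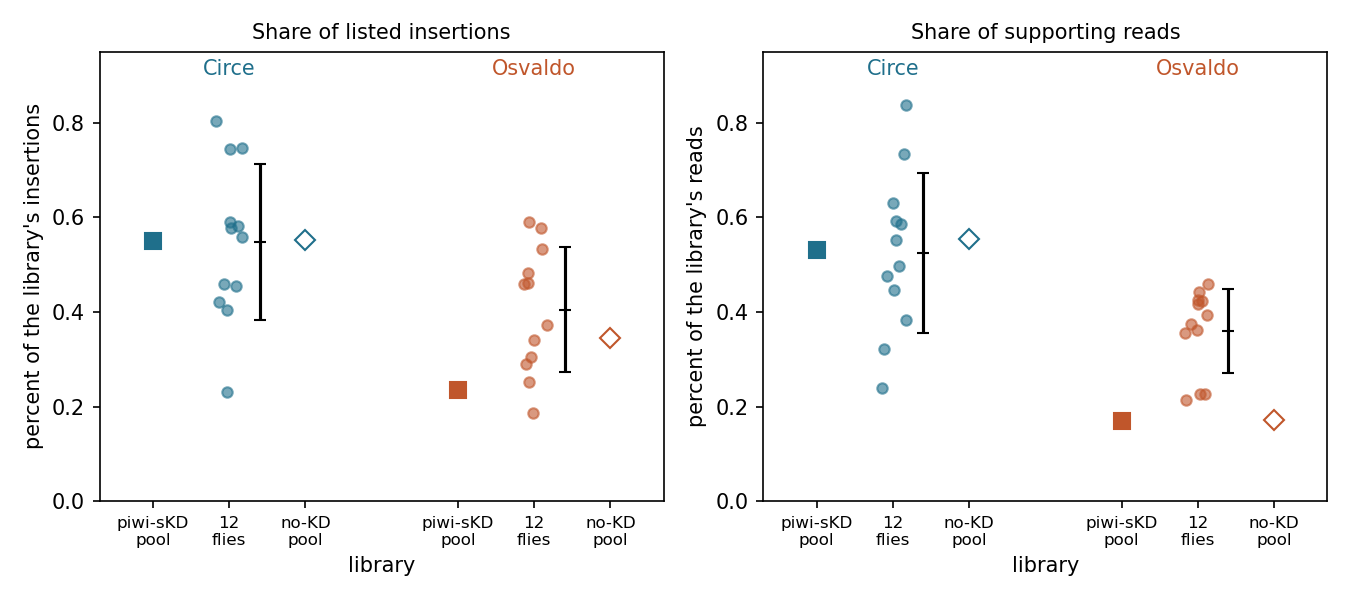
Percent of each library's insertions (left panel) and supporting reads (right panel) that were Circe (blue) or Osvaldo (orange). Squares are the piwi-sKD pool, dots the 12 single flies spread sideways for legibility, with mean and SD in black, and open diamonds the no-KD pool. The pools lie inside the flies' range for Circe, while for Osvaldo all 12 flies lie above both pools by reads.

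Within a fly, Circe averaged 4.83 ± 1.34 insertions and Osvaldo 3.58 ± 1.24 (SD, n = 12). Circe had more insertions than Osvaldo in 8 flies and fewer in 1, a mean difference of 1.25 that did not pass the threshold (exact sign-flip test over flies, two-sided, p = 0.0352, Benjamini-Hochberg adjusted p = 0.0549 over 9 tests). Neither family's count followed the size of the fly's list to a degree that passed the test. Circe against all other insertions gave Pearson's r = 0.424 (permutation p = 0.169, adjusted 0.508, n = 12) and Spearman's rho = 0.535 (permutation p = 0.0761, adjusted 0.457). When the 2 flies farthest from the median were left out, r came to 0.294. Osvaldo gave r = 0.333 (permutation p = 0.292, adjusted 0.584) and rho = 0.124 (permutation p = 0.699, adjusted 0.699), and r turned to -0.347 without the 2 farthest flies. Circe against Osvaldo gave r = 0.228 (permutation p = 0.495, adjusted 0.648) and rho = 0.196, and r was 0.0512 without the 2 farthest flies.

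The listed insertions reduced to few places in the genome. Insertions of 1 family within 20 bp of each other over all libraries were joined into loci, which gave 48 loci for Circe and 32 for Osvaldo. Many of these loci lay side by side, and joining within 500 bp, a distance chosen after the data had been seen, left 23 Circe places and 12 Osvaldo places. Circe was found at 15 places in both pools, at 3 in the piwi-sKD pool but not the no-KD pool, at 3 in the no-KD pool but not the piwi-sKD pool, and at 2 only in flies. Osvaldo was found at 8 places in both pools, at 0 in the piwi-sKD pool alone, at 2 in the no-KD pool alone and at 2 only in flies. Among all other families, 25.8% of 5242 places were in the piwi-sKD pool but not the no-KD pool and 14.7% the reverse, 1.75 times as many. According to the paper, the piwi-sKD pool had the higher sequencing coverage. Its list also rested on more reads, 47733 against 38580 in the no-KD pool. The part of depth in this excess was not tested. Circe, with 3 and 3, and Osvaldo, with 0 and 2, had no such excess, but the counts are too small to set either family apart.

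**Figure D2:**
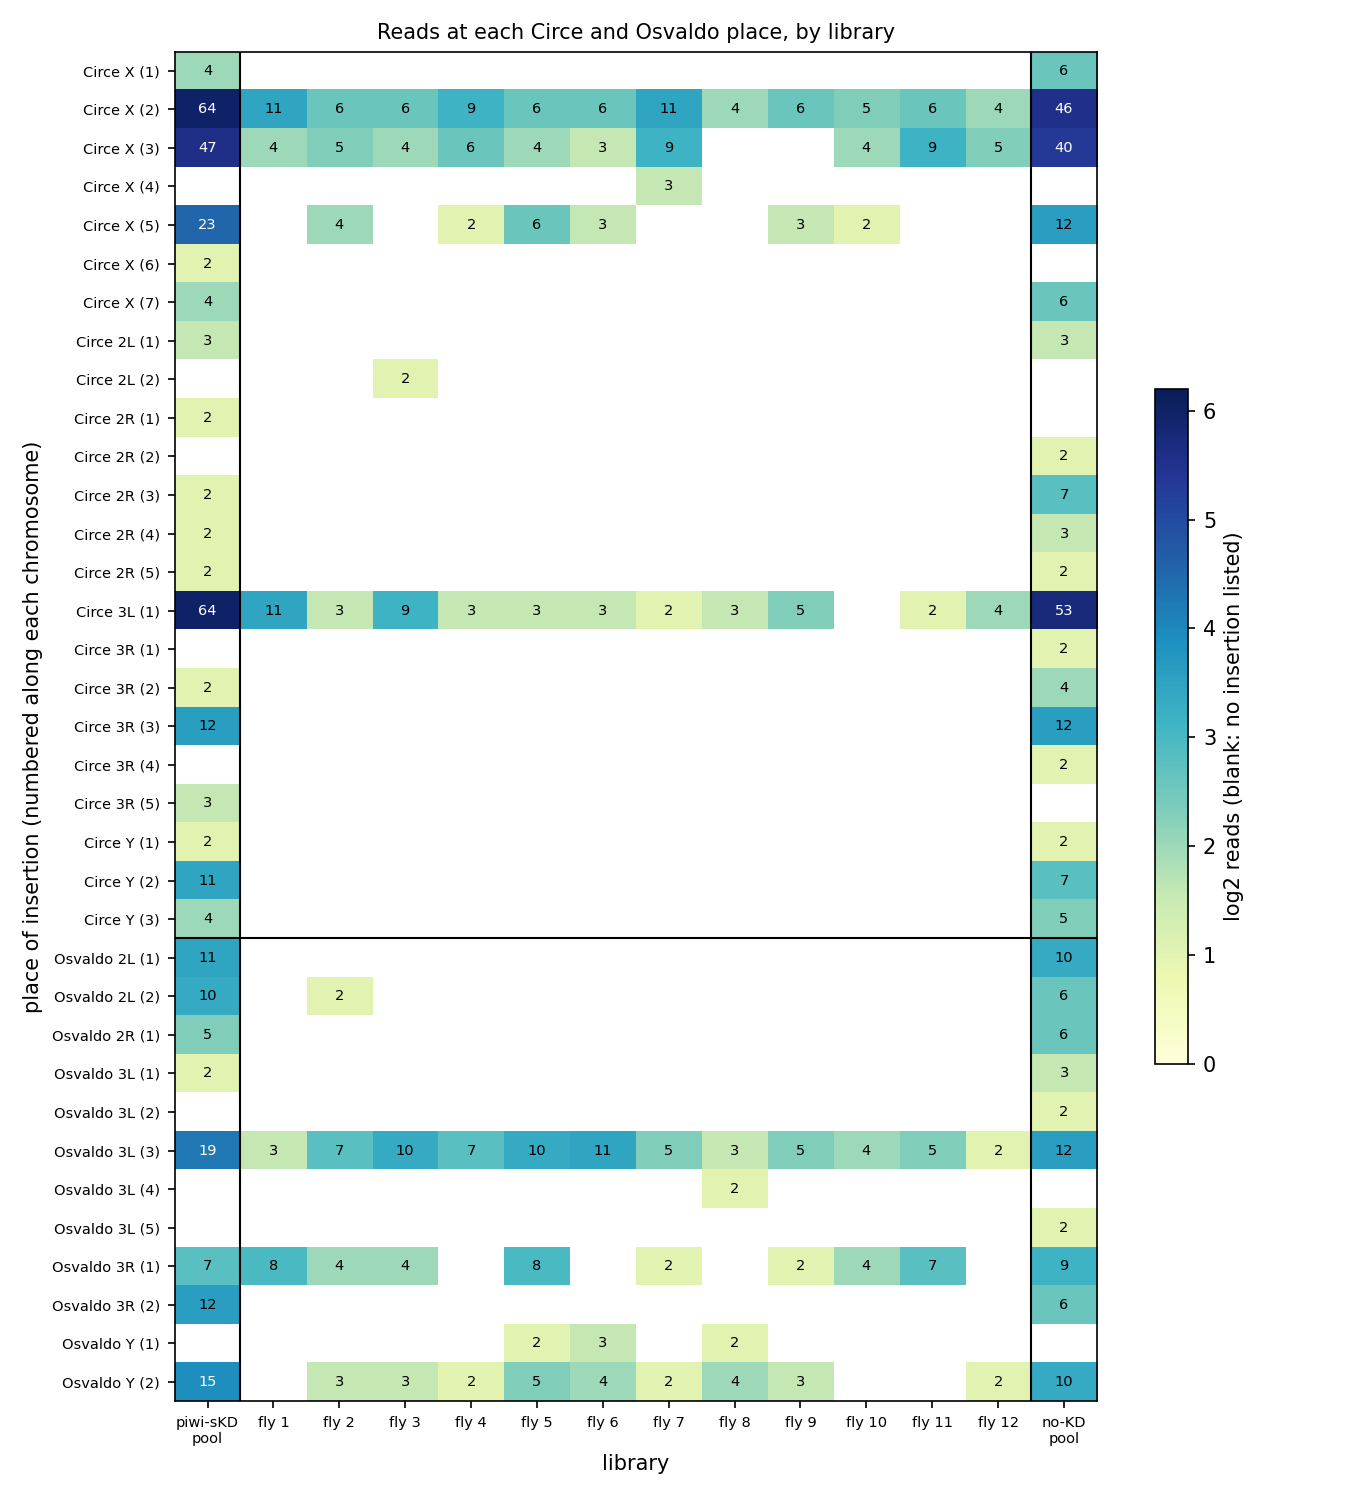
Reads supporting each of the 23 Circe and 12 Osvaldo places (rows, numbered along each chromosome) in the piwi-sKD pool, the 12 flies and the no-KD pool (columns). The number in a cell is the read count, its colour is on a log2 scale, and a blank cell has no insertion listed. Circe X (2) and Osvaldo 3L (3) are filled in all 14 libraries, and most other rows are filled in the pools alone.

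Circe had 4 places with strong support in both pools and in many flies. On the X from 23354494 to 23355026, Circe had 64 reads in the piwi-sKD pool, 4 to 11 reads with a median of 6 in all 12 flies, and 46 reads in the no-KD pool. Further along the X, from 23368204 to 23368705, it had 47 reads in the piwi-sKD pool, 3 to 9 reads with a median of 4.5 in 10 flies, and 40 reads in the no-KD pool. The X place from 23383481 to 23384070 had 23 reads in the piwi-sKD pool, 2 to 6 reads with a median of 3 in 6 flies (flies 2, 4, 5, 6, 9 and 10), and 12 reads in the no-KD pool. These 3 neighbouring places were thus ordered alike in both pools and by the number of flies. On 3L from 26021887 to 26022590, 7775 bp beyond the gene l(3)80Fg, Circe had 64 reads in the piwi-sKD pool, 2 to 11 reads with a median of 3 in 11 flies (all but fly 10), and 53 reads in the no-KD pool.

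The remaining 19 Circe places were weak or absent in the flies. None of the 17 places without a fly had more than 12 reads in either pool, and their median was 2.5 reads in the piwi-sKD pool, against 3.5 in the no-KD pool, over the 14 places listed in each. The 4 strong places had medians of 55.5 and 43 reads and ranges of 23 to 64 in the piwi-sKD pool, against 12 to 53 in the no-KD pool, so only the lowest of them in the no-KD pool touched the weak ones. They held 78.3% of the Circe reads of the piwi-sKD pool and 70.6% of those of the no-KD pool. A fly's list has far fewer reads than a pool's, and whether the weak places are missing from flies for that reason was not tested. The best supported of them was at 2386380 on 3R, within Myo81F, a myosin gene, with 12 reads in the piwi-sKD pool, against 12 in the no-KD pool. Next were the Y place at 325952, with 11 and 7 reads, and 2 X places at 23524736 and 22259867, each with 4 reads in the piwi-sKD pool, against 6 in the no-KD pool. Within Gprk1, which encodes a kinase of G protein-coupled receptors, the place on 2R at 4338779 had 2 reads in the piwi-sKD pool, against 7 in the no-KD pool.

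Osvaldo was spread more evenly. Its best supported place, on 3L from 25798067 to 25798358, had 19 reads in the piwi-sKD pool, 2 to 11 reads with a median of 5 in all 12 flies, and 12 reads in the no-KD pool. It ends 83 bp before the span of l(3)80Fg. On the Y from 1705721 to 1705953, within the Y-linked gene Ppr-Y, Osvaldo had 15 reads in the piwi-sKD pool, 2 to 5 reads with a median of 3 in 9 flies (all but flies 1, 10 and 11), and 10 reads in the no-KD pool. On 3R, a chain of insertions from 3382993 to 3384579 had 7 reads in the piwi-sKD pool, 2 to 8 reads with a median of 4 in 8 flies, and 9 reads in the no-KD pool. The nearest gene to this chain, 28507 bp away, is spok, a cytochrome P450 gene of ecdysteroid synthesis. The 2L place from 22403409 to 22403607 had 10 reads in the piwi-sKD pool, 2 reads in fly 2 and 6 reads in the no-KD pool.

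The Osvaldo places carried by flies and those in no fly overlapped in support. Of the 6 carried by flies, 2 had no reads in either pool, and the other 4 had 7 to 19 reads in the piwi-sKD pool, against 6 to 12 in the no-KD pool, and the places in no fly had 2 to 12 and 2 to 10 where listed. A 2L place at 22402903 reached 11 reads in the piwi-sKD pool, against 10 in the no-KD pool, and a 3R place at 3906462 reached 12 and 6, and neither was listed in any fly. On 2R at 4873987, Osvaldo had 5 reads in the piwi-sKD pool, against 6 in the no-KD pool, again with no fly. The places that flies carried held 63.0% of the Osvaldo reads of the piwi-sKD pool and 56.1% of those of the no-KD pool.

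Between the pools, neither family's ratio of reads or insertions differed detectably at this depth from that of all other families. The piwi-sKD pool had 1.18 times the Circe reads of the no-KD pool (interval 0.982 to 1.42) and 1.23 times the Osvaldo reads (0.876 to 1.73). The ratio for all other families was 1.24 (1.22 to 1.25), which lies inside both intervals. Insertions gave a ratio of 1.17 for Circe (0.652 to 2.10), 0.80 for Osvaldo (0.342 to 1.83) and 1.17 for all other families (1.12 to 1.22). Place by place, 5 of the 15 Circe places in both pools had more reads in the piwi-sKD pool, 6 had fewer and 4 had the same number, with a median ratio of 1. For Osvaldo, 5 of 8 places had more reads in the piwi-sKD pool and 3 had fewer, with a median ratio of 1.3. On the log2 scale the reads of the pools correlated over places with r = 0.943 for Circe (15 places) and r = 0.854 for Osvaldo (8 places), a description that rests on the few deep places.

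**Figure D3:**
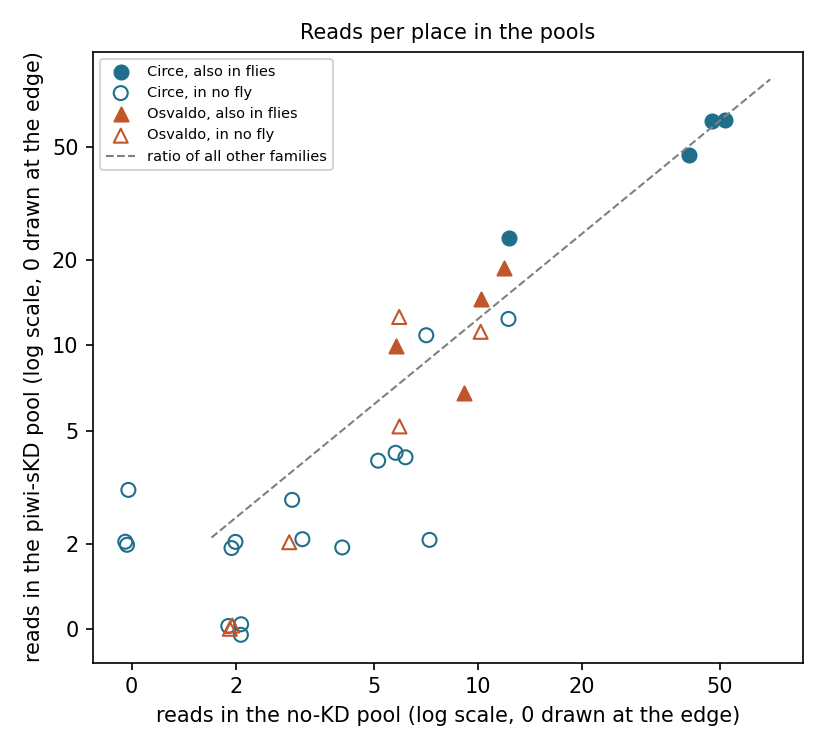
Reads per place in the piwi-sKD pool (vertical) against the no-KD pool (horizontal), both on log axes, for Circe (circles) and Osvaldo (triangles). Filled symbols are places also listed in flies, places with no read in a pool are drawn at the tick marked 0, symbols are moved by up to 5% to separate ties, and the dashed line is the ratio of all other families, 1.24. Places with no read in a pool have at most 3 reads in the other.

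An insertion was called pool-specific when the other pool had no insertion of any family within 20 bp. By this rule Circe had 11 insertions specific to the piwi-sKD pool, against 10 to the no-KD pool, which is a ratio of 1.10 (0.424 to 2.89), and Osvaldo had 8 against 11, a ratio of 0.727 (0.254 to 1.99). Over all families the counts were 2870 and 2135, a ratio of 1.34, with the higher coverage on the piwi-sKD side. Fisher's exact test of each family against all others gave an odds ratio of 0.818 for Circe (exact p = 0.664, adjusted p = 1) and 0.540 for Osvaldo (exact p = 0.245, adjusted p = 1). None of the 114 families tested passed (0% called, 2 families at an unadjusted p under 0.05, smallest adjusted p 0.945), so neither family stands out from a background in which nothing was called.

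Many pool-specific insertions, in these families and in the others, lay near an insertion of the same family in the other pool. Within 500 bp, the other pool listed the same family for 8 of the 11 Circe insertions specific to the piwi-sKD pool, against 7 of the 10 specific to the no-KD pool, and likewise for 8 of 8, against 9 of 11, of Osvaldo. Among all other families the shares were 50.0% of 2851 insertions specific to the piwi-sKD pool, against 63.2% of 2114 specific to the no-KD pool, and whether Circe or Osvaldo differed from them was not tested. The 3 Circe insertions left over in the piwi-sKD pool were at 2428357 on 2R with 2 reads, at 3639492 on 3R with 3 reads and at 23383481 on the X with 2 reads. The last of these lay 550 bp from a no-KD insertion and belonged to the place carried by 6 flies. The 3 left over in the no-KD pool had 2 reads each and were at 2651110 on 2R, at 701627 on 3R within Myo81F and at 2988633 on 3R within Pzl, a gene of a Piezo-like channel. For Osvaldo, none was left over in the piwi-sKD pool, and the 2 left over in the no-KD pool, at 23305868 and 27093058 on 3L, had 2 reads each. The pool-specific insertions with at least 5 reads were 3 of Circe, all in the no-KD pool (6 reads at 22259867 and 5 reads at 23354994 on the X, 5 reads at 2818529 on the Y), and 4 of Osvaldo. Those of Osvaldo were 10 reads at 22403409 on 2L and 5 reads each at 3906515 and 3906692 on 3R in the piwi-sKD pool, and 6 reads at 22403549 on 2L in the no-KD pool, and each lay within 500 bp of the same family in the other pool.

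Listed positions within a place often differed between libraries. At the 15 Circe places in both pools, the best supported records of the pools were within 1 bp of each other at 3 places, within 20 bp at 10 and farther apart at 5, by at most 218 bp. At the 8 Osvaldo places, they were within 1 bp at 2, within 20 bp at 4 and farther apart at 4, by at most 1449 bp, which was in the long chain on 3R. Some positions recurred to the base. Circe was listed at 23354878 on the X in 9 libraries, namely both pools and 7 flies, with 4 to 14 reads, and at 26022120 on 3L in both pools (48 reads in the piwi-sKD pool, against 35 in the no-KD pool) and 4 flies.

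Osvaldo showed the clearest offset between flies and pools. On 3L, its record was at 25798237 in the piwi-sKD pool, against 25798250 in the no-KD pool, whereas 6 flies listed it at 25798358, and none of the 13 fly records there was within 20 bp of either pool. On the Y, the 9 fly records lay at 1705721 to 1705733, 184 to 229 bp from the piwi-sKD record and within 12 bp of a weaker no-KD record of 2 reads. Of the 17 fly records at the X place of Circe from 23354494, 8 were within 20 bp of the piwi-sKD pool and 8 within 20 bp of the no-KD pool. Read length and site of preparation differed between pools and flies in the same way, and their part in the offsets was not tested.

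**Figure D4:**
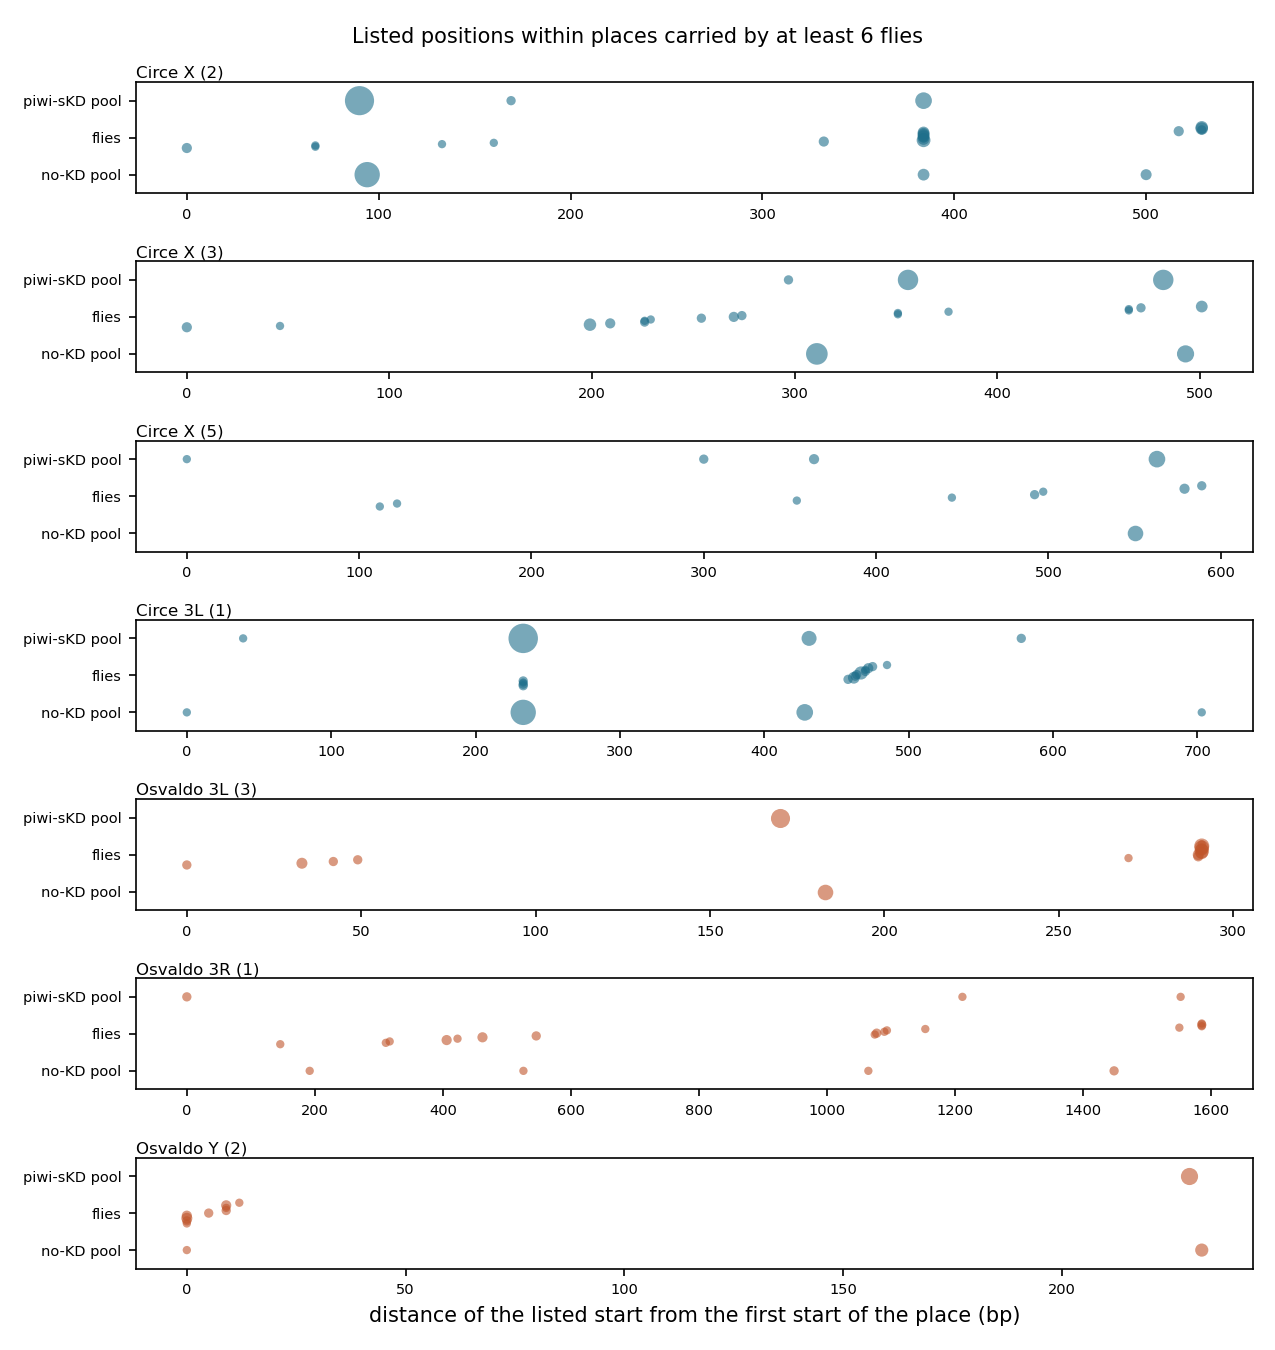
Listed start of each insertion, as distance in bp from the first start of the place, at the 7 places carried by at least 6 flies (4 of Circe in blue, 3 of Osvaldo in orange). In each panel the upper row is the piwi-sKD pool, the middle row the flies, spread vertically, and the lower row the no-KD pool, and the area of a dot grows with its reads. At Osvaldo 3L (3) the fly and pool dots do not meet, while at Circe X (2) and Circe 3L (1) dots of all rows stand above each other.

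Partner counts at 20 bp inherited these offsets. Of 58 Circe insertions in flies, 27 (46.6%) had a partner of any family within 20 bp in the piwi-sKD pool, against 19 (32.8%) in the no-KD pool. Of 43 Osvaldo insertions in flies, 3 (6.98%) had one in the piwi-sKD pool, against 12 (27.9%) in the no-KD pool. Averaged over flies, 32.4% ± 17.0 of Circe insertions had a no-KD partner, against 47.4% ± 2.84 of all other insertions (SD, n = 12). The difference of -15.0 percentage points, lower in 9 of 12 flies, passed at this window (exact sign-flip test, adjusted p = 0.0297), but it turned to 3.14 at a window of 0 bp, to 21.8 at 100 bp (adjusted p = 0.00220) and to 14.9 at 500 bp (adjusted p = 0.00439). Osvaldo had 28.3% ± 17.2 against 47.4% ± 2.81 of all other insertions (SD, n = 12), a difference of -19.1 that was lower in 10 of 12 flies (exact sign-flip test, adjusted p = 0.0132) and turned to 8.19 at 500 bp (adjusted p = 0.148). It stayed below 0 at the other windows, at -6.15 at 0 bp (adjusted p = 0.345) and -25.3 at 100 bp (adjusted p = 0.00967), and was -52.9 over 11 flies with at least 3 reads (adjusted p = 0.00342). The Circe difference thus passed in opposite directions at different windows, whereas that of Osvaldo passed only below 0.

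Matched at 20 bp, neither family's share of insertions listed in a single fly differed detectably from that of all other families. At this window, 11 of 58 Circe insertions and 7 of 43 Osvaldo insertions had no insertion of any family in the other 11 flies. The same held for 2009 of 10873 insertions of all other families. Per fly these shares did not pass against the other families, with 20.1% for Circe against 18.2% (exact sign-flip test, adjusted p = 0.819, n = 12) and 14.4% for Osvaldo against 18.2% (adjusted p = 0.433). At a window of 100 bp the Circe difference was -8.36 percentage points and passed (exact sign-flip test, adjusted p = 0.00967). Once insertions of the same family within 500 bp in any other library were taken out, 2 Circe insertions (3.45% of 58) and 1 Osvaldo insertion (2.33% of 43) remained, against 579 of 10873 (5.33%) for all other families, and these counts are too small to set either family apart. Circe was listed at 23488920 on 2L in fly 3 with 2 reads and at 23377932 on the X in fly 7 with 3 reads, and that X insertion was 5549 bp from the nearest Circe insertion of the piwi-sKD pool. Osvaldo was listed at 25802275 on 3L in fly 8 with 2 reads, within l(3)80Fg. A further Osvaldo place found in no pool, at 1705193 on the Y within Ppr-Y, was listed at the same base in flies 5, 6 and 8 with 2 to 3 reads.

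Support in the flies was low for both families and for all others alike, with a median of 3 reads in each. Of the Circe insertions of a fly, 32.1% ± 23.5 were at the minimum of 2 reads, against 48.6% ± 4.80 for all other families (SD, n = 12), a difference of -16.5 that was lower in 8 of 12 flies and did not pass (exact sign-flip test, p = 0.0366, adjusted p = 0.0549). The same share was 46.4% ± 32.6 for Osvaldo against 48.6% ± 4.78 (SD, n = 12, exact sign-flip test, adjusted p = 0.821). Some places were listed more than once in a library, in 17 of 41 pairs of place and fly for Circe. For Osvaldo it was 6 of 34 pairs, and the share in all other families was not counted. Whether records repeated at a place are 1 copy or several adjacent copies was not tested.

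Both families were listed on 2L, 2R, 3L, 3R and the Y, and only Circe on the X. The X held 23 of 48 Circe loci (47.9%, Wilson interval 34.5% to 61.7%) and 0 of 32 Osvaldo loci, against 17.7% of the loci of all other families. In the flies, 43 of 58 Circe insertions were on the X, against 2088 of 10873 for all other families. Counted over places joined within 500 bp, the X held 7 of 23 Circe places. No Osvaldo insertion was on the X in any library, 0 of 70, which allows a share of up to 4.29% if each insertion is counted as separate. Osvaldo had 15 of 32 loci on 3R (46.9%, Wilson interval 30.9% to 63.6%), against 19.2% for all other families, and all 15 lay in 2 places, while Circe had 5 loci on 3R in 5 places. On 3L the flies listed 14 insertions of each family. Neither family was listed on chromosome 4 or in the mitochondrial genome. Loci crowd into places, and the intervals treat each locus as separate.

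On the Y, the families parted in the flies. Circe had 3 Y places in both pools, at 279535, 325952 and from 2818311 to 2818529, and 0 of 58 fly insertions there or anywhere else outside the 5 large arms. A count of 0 in 58 allows a share of up to 5.17% for separate insertions, but these lay at only 6 places shared among flies of 1 line, so the limit is too low by an unknown amount. All other families had 5.48% ± 0.479 of a fly's insertions outside the large arms (SD, n = 12), so Circe was lower in 12 of 12 flies (exact sign-flip test, p = 0.000488, the smallest this design can give, adjusted p = 0.00439). With 2 to 7 Circe insertions in a fly, a count of 0 is the nearest value to 5.48% that most flies could show, so the difference of -5.48 percentage points says little. Osvaldo had 30.1% ± 22.2 of its fly insertions outside the large arms, against 5.36% ± 0.496 for all other families (SD, n = 12), higher in 9 flies and lower in 3 (exact sign-flip test, adjusted p = 0.0132). All 12 of those Osvaldo insertions were on the Y and within Ppr-Y, so this difference rests on 1 stretch of the genome. The 9 flies with Osvaldo on the Y listed 8 to 19 Y insertions of all families, and the 3 flies without it 13 to 19. All other families had 172 of 10873 fly insertions on the Y, against 347 of 5056 in the piwi-sKD pool and 297 of 4317 in the no-KD pool. The Y was thus listed less often in flies than in pools beyond these families too. The sex of the flies was not considered, and whether a fly record marks a copy on the Y was not tested.

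Most loci of both families on the large arms lay within 5 Mb of the proximal end, but only Circe ranked near the lowest median distance. Distances were taken from the proximal end of each large arm, which is the last annotated gene on X, 2L and 3L and the first base on 2R and 3R. Circe loci had a median distance of 0.184 Mb, the lowest of the 88 families with at least 20 loci on these arms when loci are counted, and 40 of 43 (93.0%) were within 5 Mb. The farthest were on 2R, at most 6.48 Mb out. Osvaldo loci had a median of 3.38 Mb, 41st among the 88 families, and all 29 (100%) were within 5 Mb, the farthest at 4.87 Mb. All other families had a median of 4.81 Mb with 51.9% within 5 Mb. The rank of Circe depended on the unit, since many of its loci crowd into few X places. Over places joined within 500 bp, counted after the data had been seen, the median was 1.29 Mb for 20 Circe places (4th of the same 88 families), 2.80 Mb for 10 Osvaldo places (33rd) and 4.25 Mb for all other families. Within 5 Mb were 18 Circe places (90.0%), all 10 Osvaldo places and 56.7% of the places of all other families.

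**Figure D5:**
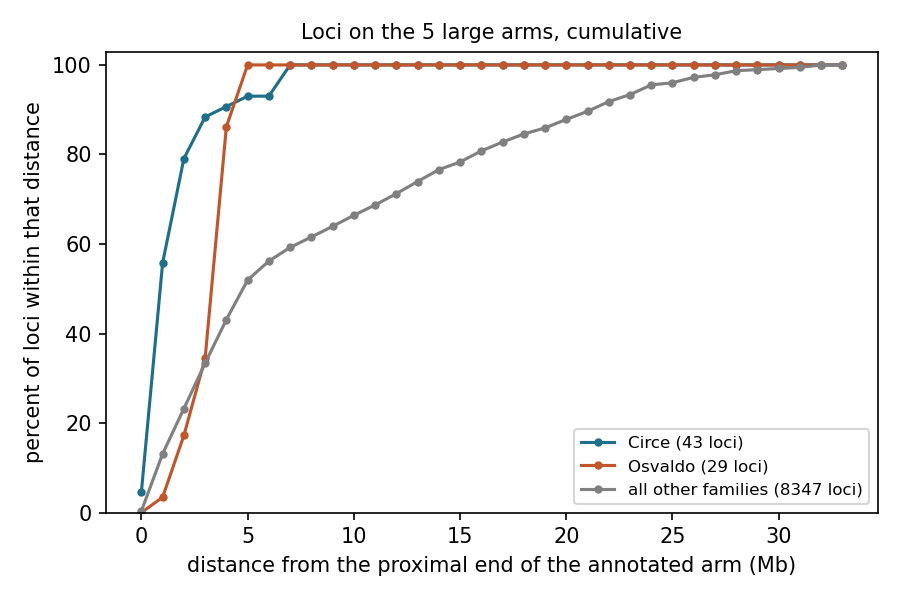
Cumulative percent of loci (vertical) within a given distance in Mb of the proximal end of the annotated arm (horizontal), for 43 Circe loci, 29 Osvaldo loci and 8347 loci of all other families on the 5 large arms. Circe reaches 55.8% within 1 Mb, Osvaldo reaches 100% at 5 Mb, and all other families stand at 51.9% at 5 Mb.

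The X places of Circe lay beyond the annotated ribosomal RNA genes of that chromosome. The gene table has 2 rRNA genes on the X, between 23280155 and 23291729, and 62 of the 64 Circe insertions on the X were past them, the nearest by 62765 bp. All 43 fly insertions on the X lay within 29.6 kb. R1 elements, non-LTR retrotransposons that insert into the ribosomal RNA genes, were the commonest neighbours there. Of all Circe insertions, 27 of 110 (24.5%, Wilson interval 17.5% to 33.4%) had another family listed within 500 bp in the same library. The share was 6 of 70 for Osvaldo (8.57%, 3.99% to 17.5%) and 12.7% for all other families. Many of these insertions are repeated listings of the same places, and the intervals treat each as separate. R1A1-element made 17 pairs with Circe insertions, where an insertion with several R1A1-element records nearby counts once for each. The Osvaldo neighbours were all accord2, an LTR family, in 3 libraries. Counted as pairs in the same way, S-element stood beside Circe 6 times, Rt1a 5 times and McClintock 3 times. The McClintock records at the Circe place in Myo81F were listed in 9 libraries, 7 of them flies, although no fly listed Circe there. Circe and Osvaldo never lay within 500 bp of each other in a library, and their closest insertions over all libraries were 219612 bp apart.

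Some places of each family lay within gene spans, and the share among all other families was not counted. Of the Circe places, 5 were within gene spans, namely 3 in Myo81F (3R, 567076 to 2532932), 1 in Pzl (3R, 2554162 to 3263582) and 1 in Gprk1 (2R, 4322295 to 4471060), and no fly carried any of them. Of the Osvaldo places, 3 were within gene spans, 2 in Ppr-Y (Y, 1636574 to 1884846) and 1 in l(3)80Fg (3L, 25798441 to 26014112). All 5 genes are long, with spans of 149 to 1966 kb, and 0 genes held both families. Exons and introns were not analysed here.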

How the data were processed

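The authors mapped genomic paired-end reads to dm6 with BWA (0.7.5a-r405 for the pools, 0.7.10-r789 for the flies) and ran T-lex de novo on soft-clipped reads and on pairs mapped at 1 end to list insertions that the reference lacks. Per their methods only uniquely mapped anchors were used, which limits what can be listed in repeated sequence. Support was deposited as a count of reads for the flies and for the piwi-sKD pool. For the no-KD pool the authors deposited a scaled signal. All of its values (100%, within 0.01 reads) were whole multiples of 1.23 and were divided by it. The authors' subsampling of the piwi-sKD reads was not used. Coordinates are as deposited on dm6, and whether they start at 0 or 1 is not stated. Gene spans came from a RefSeq gene table.

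Insertions were matched within 20 bp, whatever the family. Fisher's exact test (families with at least 5 pool-specific insertions), exact sign-flip tests over 12 flies (4096 sign patterns) and correlations (100000 permutations) were two-sided, with Benjamini-Hochberg adjustment over 114 families, 9 tests and 6 p-values. The Fisher script was tested on simulated data. Alternatives were windows of 0, 100 and 500 bp, same-family matching, at least 3 reads, the large arms, chromosome 4 and the Y only, merged records and family minimums of 1 and 20. Places at 500, 1000 and 2000 bp, and the same 500 bp rules over all other families, were added after seeing the data. The members and lists were chosen with earlier results of these data known. Named loci were those in most flies (up to 10), the 5 best supported per pool, pool-specific ones with at least 5 reads and single-fly ones with at least 3 reads and no pool partner. Other places, and those of weak support, were named after their values were seen. Python 3.11.15, numpy 2.4.6, pandas 2.3.3, scipy 1.17.1 and matplotlib 3.10.9 were used.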

Additional observations from a re-analysis of the deposited data

How the results depend on the processing

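Of the alternatives tried, 77 values kept their direction and their side of the threshold, or for counts stayed within 1.5 times, and the number of families called between the pools was 0 throughout. With matching restricted to the same family, the Circe odds ratio between the pools turned to 1.06 (14 and 10 insertions, Fisher's exact test, adjusted p = 1). The Circe share with a no-KD partner, less that of other families, turned to 3.14 percentage points at 0 bp, 21.8 at 100 bp and 14.9 at 500 bp, and was -16.5 with at least 3 reads, no longer past the threshold (exact sign-flip test, adjusted p = 0.0793). The Circe share found in 1 fly turned to -8.36 at 100 bp (adjusted p = 0.00967) and -4.72 at 500 bp (adjusted p = 0.0703). For Osvaldo, the difference in no-KD partners was -6.15 at 0 bp (adjusted p = 0.345) and turned to 8.19 at 500 bp, and the share found in 1 fly turned to 6.43 with at least 3 reads (adjusted p = 0.485). The share of Osvaldo outside the large arms fell short with at least 3 reads, at 19.3 percentage points over 11 flies (adjusted p = 0.0735). Circe loci numbered 76 at 0 bp, 31 at 100 bp, 23 at 500 bp and 31 with at least 3 reads, and Osvaldo loci 12 at 500 bp. Joining at 1000 or 2000 bp gave 23 Circe and 9 Osvaldo places. Over 500 bp places in place of loci, the Circe median distance from the proximal end was 1.29 Mb. The window merges the offsets between fly and pool positions by construction, and the cause of the other changes was not tested. At 500 bp, Osvaldo had too few pool-specific insertions for the Fisher test. No paired analysis between groups was possible because the groups share no replicate pairs: the pools have 1 library each. The sign-flip tests paired values within a fly.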

Other observations

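Families near Circe in the summed number of insertions had higher median distances of their loci from the proximal end. Counted over 20 bp loci, Circe had a median distance of 0.184 Mb from the proximal end of the large arms, against 10.5 Mb for flea (105 insertions) and 10.7 Mb for mdg1 (110), whereas G6 (109), diver2 (111) and HB (113) had 1.82, 2.66 and 4.52 Mb. By the share of loci within 5 Mb, Circe had 93.0%, diver2 86.7%, G6 74.3%, HB 52.5%, flea 25.8% and mdg1 11.1%. Circe had 4.78 insertions per place joined at 500 bp, and these families 2.41 to 4.40. Osvaldo had 5.83 insertions per place, close to diver (64 insertions, 5.82 per place) and above aurora-element (64), invader2 (68), transib2 (74) and G5 (80), which had 2.18 to 2.78. Its median distance of 3.38 Mb was above those of G5 (2.05), invader2 (2.30), aurora-element (2.51) and transib2 (3.03) and below that of diver (15.7). Within 5 Mb were 100% of Osvaldo loci, 97.3% of aurora-element, 93.6% of transib2, 84.8% of invader2, 68.8% of G5 and 33.3% of diver.

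Over the 12 flies, the families whose share of a fly's insertions was most like that of Circe, of 45 with at least 5 insertions per fly, were P-element (r = 0.698), R2-element (r = 0.660) and 17.6 (r = 0.651). For Osvaldo they were R1A1-element (r = 0.606), Doc2-element (r = 0.549) and FB (r = 0.493). These are the highest of many values over 12 libraries that share a line and a preparation, and are given as a description.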
